A study of Mus musculus with 8 samples.

Results

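Neutrophils store proteins in granules that form one class after another while the cell matures in the bone marrow: azurophil granules first, then specific granules, then gelatinase granules. Transcription of the cargo genes runs during that window, and C/EBP-epsilon is a known activator of the specific granule genes. On activation, granules fuse with the plasma membrane and release antimicrobial proteins and proteases that cut matrix. The 10 genes described here encode proteins of the specific and gelatinase granules, and they were listed by gene symbol: Ltf, Camp, Ngp, Lcn2, Chil3, Cd177, Mmp8 and Olfm4 of the specific and Mmp9 and Mmp25 of the gelatinase granules. They are 10 of the 24421 genes in the count table, and all 10 passed the filter on low counts.

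RNA was sequenced from bone marrow neutrophils, isolated magnetically from 8-week-old female C57BL/6 mice that were wild type (WT) or Padi4-/- (Padi4 KO). The knockout removes exon 1 of Padi4, the gene of the arginine-converting enzyme PAD4, in every cell of the animal, precursors included. Cells of each genotype were left unstimulated (Nostim) or were given R848, a TLR7 agonist, at 1 µg/ml for 6 h. Every group was sequenced as duplicate libraries (8 in all), for which separate mice are not stated, so the p-values measure the spread between libraries, which may be technical. The sample names give 0 h for unstimulated cells whereas the methods describe 6 h in culture for all, and under the former every difference after R848 includes time in culture.

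Between 562446 and 1177972 counts per library fell on genes, and the mean of the Padi4 KO libraries was 1.66 times that of the WT libraries. Padi4 had 590 and 527 counts in unstimulated WT cells against 40 and 54 in Padi4 KO cells, and 166 and 234 against 34 and 21 after R848. Of 8 neutrophil markers, 7 were in the table and none was at 0. Their summed level was 77186 to 93723 CPM (the count of a gene per library total, times 1e6) in WT and 65210 to 68011 in Padi4 KO. S100a8 and S100a9 gave most of this sum in each library, so it says little about the other markers. In WT Nostim library 1 they had 19200 and 30183 counts, beside 1359 of Csf3r and 731 of Cxcr2. By the model described below, all 7 had lower values in Padi4 KO without stimulation, and 5 lower and 2 higher values after R848. Unless stated otherwise, levels are given as CPM scaled by TMM factors, in the order library 1, library 2. Log2 fold changes carry their standard error (SE), and adjusted p-values are those of the edgeR quasi-likelihood test after Benjamini-Hochberg correction across 12254 genes. A gene counted as called when its false discovery rate was under 0.1, and for the R848 responses its change also had to exceed 2-fold.

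RefSeq promoter windows of build GRCm38.p6 were found for 9 of the 10 genes; Mmp9 had no entry. The 250 bases before the start were searched on both strands for ATTGC (the core of a C/EBP site), GAGGAA (a site like that of PU.1) and TATAAA (a core promoter box). The AP-1 site TGANTCA and the NF-kB stretch GGGANTT, where N is any base, were searched likewise. ATTGC was present in 5 of the 9 windows (Ltf, Camp, Ngp, Lcn2 and Mmp8), against 23.1% of 32851 promoters of the genome. GAGGAA was present in 6 of 9 (Ltf, Lcn2, Cd177, Mmp8, Olfm4 and Mmp25) against 23.3%, GGGANTT in 1 of 9 (Olfm4) against 14.4%, and TATAAA in 1 of 9 (Cd177) against 12.4%. TGANTCA was in 0 of 9 windows, against 6.75% of all promoters. No pair of matches in a window overlapped. Exons annotated by GENCODE reached into some windows, and matches past an exon start were counted too. The stretch before the first exon base ended 162 bases before the start in Camp, whose ATTGC match lay at 137. It ended at 52 in Olfm4, whose GGGANTT match lay at 49. The Lcn2 matches, at 139 and 20, also lay past an exon start, and the GAGGAA match of Mmp25, at 13, ran into an exon. The stretches below are written 5′ to 3′ along the gene, with matches in capitals. They show the promoters of the secreted iron-binding gene Ltf and of Ngp, the most abundant of the 10 genes in unstimulated cells. Both hold ATTGC, printed as GCAAT where it lies on the other strand. Also shown are those of Cd177 and Mmp8, called lower after R848 in both genotypes, and of Chil3, whose genotype difference was the largest of the 10.
Ltf (chr9:111019121-111019270, plus strand): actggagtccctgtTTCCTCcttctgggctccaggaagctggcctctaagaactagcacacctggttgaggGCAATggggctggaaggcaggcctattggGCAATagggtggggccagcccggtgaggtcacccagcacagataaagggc
Ngp (chr9:110419597-110419746, plus strand): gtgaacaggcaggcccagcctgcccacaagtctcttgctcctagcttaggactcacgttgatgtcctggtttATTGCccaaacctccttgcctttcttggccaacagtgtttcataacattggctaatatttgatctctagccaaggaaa
Cd177 (chr7:24760312-24760461, minus strand): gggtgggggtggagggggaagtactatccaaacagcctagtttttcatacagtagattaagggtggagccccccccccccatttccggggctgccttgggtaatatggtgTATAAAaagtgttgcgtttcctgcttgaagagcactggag
Mmp8 (chr9:7558279-7558428, plus strand): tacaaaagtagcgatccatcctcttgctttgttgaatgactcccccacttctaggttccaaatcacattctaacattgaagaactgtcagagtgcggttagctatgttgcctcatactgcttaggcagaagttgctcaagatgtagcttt
Chil3 (chr3:106167565-106167714, minus strand): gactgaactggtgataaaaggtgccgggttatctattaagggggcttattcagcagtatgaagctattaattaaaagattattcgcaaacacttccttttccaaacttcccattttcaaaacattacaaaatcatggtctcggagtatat
Ltf had 2 ATTGC matches, at 100 and 71 bases before the start, and the TATAAA match of Cd177 lay 40 bases before it. The single ATTGC and GAGGAA matches of Mmp8 lay upstream of the stretch shown, at 243 and 219 bases before the start, and Chil3 had no match to any of the 5 motifs.

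In the GENCODE annotation of GRCm38, Ngp (110419747 to 110423012) and Ltf (111019271 to 111042767) lie on the plus strand and Camp (109847379 to 109849617) on the minus strand of chromosome 9. Mmp8 (7558456 to 7568485) lies elsewhere on the same chromosome. Lcn2 (32384633 to 32388252) and Mmp9 (164940780 to 164955850) lie on chromosome 2. Olfm4 overlaps the non-coding gene Gm6999 on its own strand, and Mmp25 overlaps 2 processed pseudogenes on the opposite strand, so counts on these 2 genes are uncertain. No overlapping gene was annotated for the other 8.

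The 10 genes made up a large and genotype-dependent part of the neutrophil transcriptome. They took 9.05% (Wilson 95% interval 8.98 to 9.12%) and 8.92% (8.85 to 9.0%) of the gene counts in unstimulated WT libraries. The share was 7.72% and 7.96% in WT after R848, 6.91% and 7.01% in unstimulated Padi4 KO, and 6.03% and 6.15% in Padi4 KO after R848. The 4 groups did not overlap, and the intervals cover counting error only. The shares need no scaling between libraries.

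Ngp, a cathelicidin-related protein of neutrophil granules, had the 2nd to 5th highest level of all genes in every library, and Lcn2 moved from 6th to 3rd after R848 in both genotypes. To compare genes with one another, CPM were divided by the length of the principal GENCODE transcript. On this scale of CPM per kb, unstimulated WT cells had 23661 ± 144 (SD, n = 2) for Ngp, 12279 ± 226 for Lcn2 and 7367 ± 958 for Camp, the cathelicidin gene. Ltf followed with 6229 ± 313 CPM per kb, Chil3 with 5132 ± 344, Mmp8 with 2729 ± 48.3 and Mmp9 with 2034 ± 32.1. Cd177 had 1342 ± 33.0 CPM per kb, and Mmp25 (102 ± 2.90) and Olfm4 (97.2 ± 1.48) were lowest. No libraries of neighbouring genes in this order overlapped, although Camp and Ltf, and Mmp25 and Olfm4, were within 1.2-fold of each other. After R848, Lcn2 was first in WT (34502 ± 242 CPM per kb) and in Padi4 KO (25975 ± 106), above Ngp at 23102 ± 376 and 14537 ± 422. The order depends on the length used. Over all its annotated exons, 2623 rather than 915 bases, Lcn2 in unstimulated WT cells (4228 to 4339 CPM per kb) lay below Ltf and Chil3. After R848 it had 12036 in WT and 9061 in Padi4 KO on that scale, below Ngp at 23102 and 14537. In unstimulated WT cells, Ltf (4776 to 5128) and Chil3 (4611 to 5069) then overlapped, and Mmp25 (87.5) lay below Olfm4 (91.9).

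**Figure D1:**
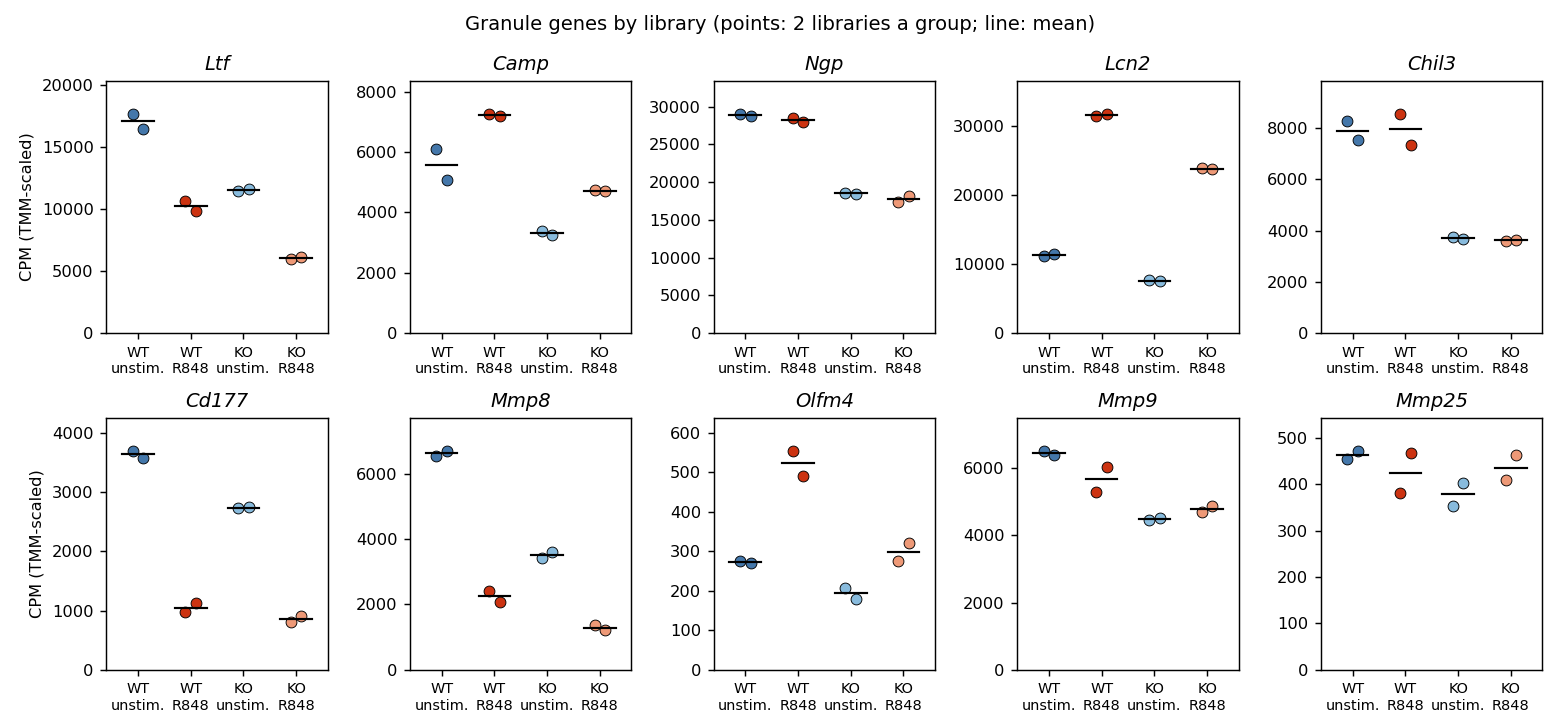
Level of each of the 10 granule genes (CPM, TMM-scaled, linear axis from 0, different for each gene) in the 4 groups; points are the 2 libraries of a group and the line is their mean. Lcn2 was about 3 times higher after R848 in both genotypes, Cd177 and Mmp8 about 3 times lower, and the Padi4 KO points of Chil3 lay at 3728 CPM or less against 7353 CPM or more in WT.

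The first question was how the granule genes responded to TLR7 stimulation. In WT neutrophils, 1 of the 10 genes was called higher after R848 (Lcn2), where 7.17% of all tested genes were, and 2 were called lower (Cd177 and Mmp8), where 10.8% were. Among 68 genes of at least 1000 counts on average, which include 8 of the 10, 26.5% were called higher and 7.35% lower. The same counts held for the same 3 genes in Padi4 KO neutrophils, against a background of 8.07% higher and 8.84% lower, and of 27.9% and 4.41% among the 68 abundant genes. Over the 10 genes, log2 fold changes had a median of -0.08 (WT) and 0.03 (Padi4 KO), beside -0.07 and 0.08 over the 6912 genes with at least 10 counts on average. The group did not move as 1 block, and its members spanned log2 fold changes from -1.79 to 1.49 in WT and from -1.67 to 1.65 in Padi4 KO. Library size alone, without TMM factors, moved the all-gene medians to -0.38 and -0.30, a shift that applies to all log2 fold changes of the responses below. Without the 2-fold limit, 3 genes were higher and 4 lower in WT, and 4 were higher and 3 lower in Padi4 KO, where 13.5% and 16.0% of all genes were called in WT and 19.2% and 15.9% in Padi4 KO.

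Iron is withheld from microbes by 2 of the proteins, lipocalin 2 (Lcn2), which binds bacterial siderophores, and lactoferrin (Ltf), which binds iron itself, and their transcripts went in opposite directions. Lcn2 had 11090 and 11382 CPM in unstimulated WT cells and 31413 and 31726 CPM after R848. The Padi4 KO libraries had 7619 and 7540.3 CPM without and 23836 and 23699 CPM with R848. Both stimulated libraries of a genotype lay far above its unstimulated ones. The rise was 2.81-fold in WT (log2 fold change 1.49, SE 0.06, adjusted p = 1.51e-133) and 3.14-fold in Padi4 KO (log2 fold change 1.65, SE 0.06, adjusted p = 2.78e-163).

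Ltf had 17693 and 16478 CPM in unstimulated WT cells and 10649 and 9872 CPM after R848. In Padi4 KO cells it had 11471 and 11640.2 CPM without and 5996 and 6103 CPM with R848. The stimulated libraries were lower in both genotypes, with no overlap. The fall was 1.67-fold in WT (log2 fold change -0.74, SE 0.06, adjusted p = 2.81e-32) and 1.91-fold in Padi4 KO (-0.93, SE 0.06, adjusted p = 5.55e-52), so Ltf passed the false discovery rate but not the 2-fold limit. In Padi4 KO cells it did pass that limit with DESeq2 (-1.02), relative log expression factors (-1.02) and library size alone (-1.31), and when any 1 of the 4 R848 libraries was left out (-1.07 to -1.06), which made 3 genes called lower there. In WT cells it passed with library size alone (-1.04).

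Among the antimicrobial peptide genes, neither Camp nor Ngp was called, and Camp was modestly higher after R848. Camp, whose product is cut into the mouse cathelicidin peptide, had 6098 and 5071 CPM in unstimulated WT cells and 7268 and 7211 CPM after R848. The values in Padi4 KO were 3385 and 3261 CPM without and 4751 and 4702 CPM with R848. Stimulated libraries were higher in both genotypes, by a log2 fold change of 0.37 (SE 0.06, adjusted p = 5.88e-08) in WT and 0.51 (SE 0.06, adjusted p = 1.53e-14) in Padi4 KO, under the 2-fold limit. With library size alone these values were 0.07 (adjusted p = 0.487) and 0.13. Under TMM scaling, relative to the median of the abundant genes, they were 0.0095 and 0.05. Ngp had 29037 and 28789 CPM in unstimulated WT cells and 28555 and 27905 CPM after R848. Ngp in Padi4 KO had 18607 and 18459.9 CPM without and 17400.1 and 18129 CPM with R848. The stimulated Ngp libraries lay just below the unstimulated ones in each genotype, with log2 fold changes of -0.03 (95% interval -0.15 to 0.08) and -0.06 (-0.17 to 0.05).

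Cd177 and Mmp8 carried the largest falls of the group. Cd177, a membrane protein of specific granules and of the neutrophil surface, had 3704 and 3577 CPM in unstimulated WT cells and 970.1 and 1128 CPM after R848. Without PAD4 the values were 2727 and 2745 CPM without and 809 and 914 CPM with R848. No stimulated library came near an unstimulated one, and the fall was 3.46-fold in WT (log2 fold change -1.79, SE 0.08, adjusted p = 6.21e-122) and 3.18-fold in Padi4 KO (-1.67, SE 0.07, adjusted p = 1.11e-118). By level among all genes, Cd177 went from 17th to 19th place without R848 to between 128th and 161st place with it.

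Mmp8, neutrophil collagenase, had 6535 and 6701 CPM in unstimulated WT cells and 2409 and 2082 CPM after R848. In Padi4 KO cells it had 3430.3 and 3606 CPM without and 1364 and 1216 CPM with R848. The libraries of the 2 treatments were again well apart. Mmp8 fell 2.95-fold in WT (log2 fold change -1.56, SE 0.07, adjusted p = 2.53e-112) and 2.73-fold in Padi4 KO (-1.45, SE 0.07, adjusted p = 3.34e-99).

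The gelatinase granule genes moved little. Mmp9, gelatinase B, had 6529 and 6385 CPM in unstimulated WT cells and 5295 and 6049.9 CPM after R848. Mmp9 in Padi4 KO had 4464 and 4524 CPM without and 4703 and 4888 CPM with R848. It was lower after R848 in both WT libraries (log2 fold change -0.19, SE 0.06, adjusted p = 0.0171) and higher in both Padi4 KO libraries, without a call (0.09, SE 0.06, adjusted p = 0.282). The WT value turned to 0.04 when WT R848 library 1 was left out, and the Padi4 KO value turned to -0.28 with library size alone.

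Mmp25, a membrane-anchored metalloproteinase, had 455 and 473 CPM in unstimulated WT cells and 381 and 467 CPM after R848, which overlapped. The Padi4 KO values were 353 and 404 CPM without and 409.6 and 463 CPM with R848, which narrowly did not overlap. Its log2 fold changes were -0.12 (SE 0.11, adjusted p = 0.485) and 0.19 (SE 0.09, adjusted p = 0.0969).

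Olfm4 and Chil3 complete the group. Olfm4, olfactomedin 4, which marks a subset of neutrophils, had 275 and 269 CPM in unstimulated WT cells and 554 and 490.4 CPM after R848. Olfm4 in Padi4 KO had 207 and 179.96 CPM without and 275 and 319.8 CPM with R848. The stimulated libraries were higher in both genotypes, by a log2 fold change of 0.94 (SE 0.11, adjusted p = 8.64e-15) in WT and 0.63 (SE 0.11, adjusted p = 3.81e-08) in Padi4 KO. The WT value lay at the 2-fold limit and passed it with DESeq2 and with relative log expression factors (1.009 and 1.007) and in a model of the WT libraries alone (1.06).

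Chil3, a chitinase-like lectin (Ym1), had 8273 and 7524 CPM in unstimulated WT cells and 8549.7 and 7353 CPM after R848, which overlapped. In Padi4 KO cells it had 3728 and 3681 CPM without and 3583 and 3646 CPM with R848. Its log2 fold changes after R848 were 0.0086 (95% interval -0.11 to 0.13) and -0.04 (-0.16 to 0.09), whereas its level in each Padi4 KO library was less than that in each WT library.

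**Figure D2:**
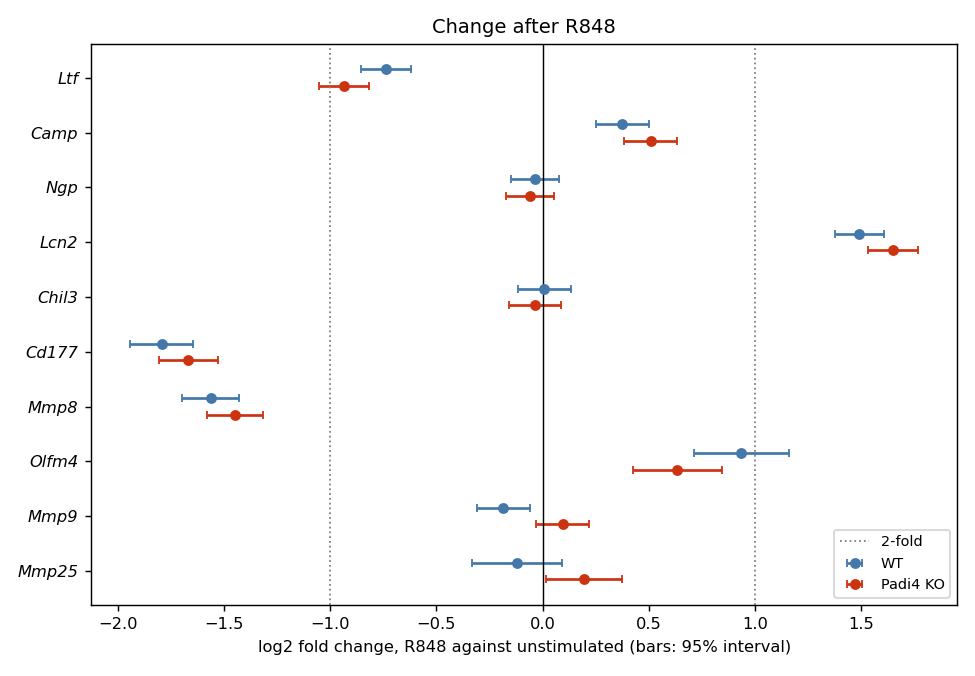
Log2 fold change after R848 (x axis, R848 against unstimulated) of each granule gene in WT and Padi4 KO neutrophils; points are estimates of the edgeR model from 2 libraries a group, bars the 95% interval from its SE, dotted lines a 2-fold change. Lcn2 lay beyond 2-fold on the right (1.49 and 1.65), Cd177 (-1.79 and -1.67) and Mmp8 (-1.56 and -1.45) on the left.

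The changes redistributed the counts within the group, a measure that is free of scaling. Lcn2 took 12.4% and 13.1% of the counts on the 10 genes in unstimulated WT cells and 32.7% and 33.6% after R848. In Padi4 KO it went from 13.6% and 13.5% to 37.8% and 37.0%. Ltf fell from between 19.0% and 20.8% of these counts in the 4 unstimulated libraries to between 9.50% and 11.1% in the 4 stimulated ones. Cd177 fell from between 4.13% and 4.90% to between 1.0% and 1.43%, and Mmp8 from between 6.13% and 7.73% to between 1.90% and 2.51%. Ngp stayed between 27.6% and 33.2% in all 8 libraries. Chil3 took 7.80% to 9.22% of these counts in WT and 5.68% to 6.66% in Padi4 KO libraries, so that its share also differed by genotype at both treatments.

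**Figure D3:**
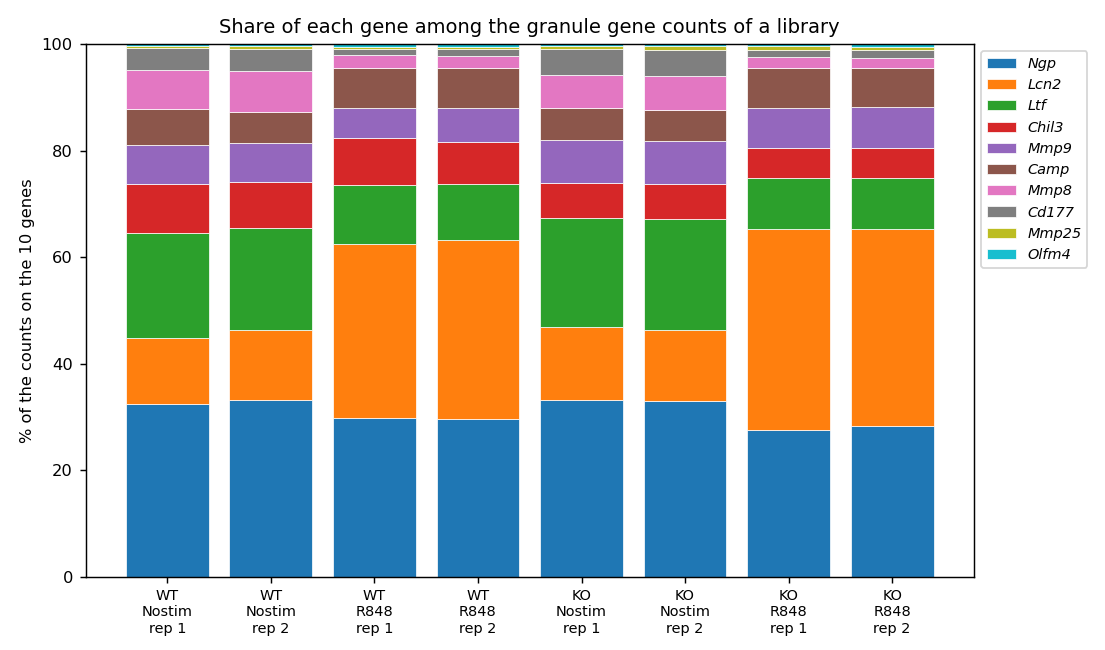
Share of each gene (% of the counts on the 10 granule genes, stacked to 100) in each of the 8 libraries. The Lcn2 band widens from at most 13.6% without R848 to at least 32.7% with it in both genotypes, while the Ltf, Mmp8 and Cd177 bands narrow.

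The second question was whether the loss of Padi4 altered these responses. The difference of response subtracts the WT log2 fold change from the one in Padi4 KO. It was called for 1 of 10 genes, Mmp9 (0.28, SE 0.09, adjusted p = 0.0523), higher, where 3.45% of all genes were called higher and 1.26% lower. Among the 68 abundant genes, 29.4% were called higher and 8.82% lower. The median difference was 0.12 for the 10 genes and 0.18 for genes with at least 10 counts on average, and relative to the latter the difference of Mmp9 was 0.10. The Mmp9 call was lost with DESeq2 (0.12, adjusted p = 0.793), relative log expression factors (0.12, adjusted p = 0.663) and library size alone (0.21, adjusted p = 0.276). It was also lost when any library but WT Nostim library 2 was left out, with values from -0.09 without WT R848 library 1 to 0.28 without Padi4 KO Nostim library 2.

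For Ltf the opposite held. Its difference of -0.20 (SE 0.09, adjusted p = 0.231) was not called, but relative to the median of genes with at least 10 counts it was -0.38. With DESeq2 (-0.35, adjusted p = 0.00847), relative log expression factors (-0.35, adjusted p = 0.00303) and library size alone (-0.27, adjusted p = 0.0696) Ltf was called lower, and it was the single member called. Ltf was also called lower without WT R848 library 1 (-0.42) or library 2 (-0.48) and without Padi4 KO R848 library 1 (-0.42) or library 2 (-0.43). Leaving out 1 of these 4 stimulated libraries moved the median difference of genes with at least 10 counts from 0.18 to between -0.07 and -0.06, and 1 to 4 members were then called lower.

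For the 3 genes called in both responses, the differences were 0.16 for Lcn2 (95% interval -0.0042 to 0.32), 0.12 for Cd177 (-0.08 to 0.33) and 0.11 for Mmp8 (-0.07 to 0.30). Under TMM scaling these intervals reach at most about 1.3-fold. Relative to the median of genes with at least 10 counts, the responses of Lcn2 were 1.56 in WT and 1.57 in Padi4 KO, those of Cd177 -1.72 and -1.74, those of Mmp8 -1.49 and -1.52 and those of Camp 0.45 and 0.43. The signs of all 3 turned under other settings, among them leaving out WT R848 library 1 (-0.12, -0.25 and -0.05). The intervals of Camp (-0.04 to 0.31), Ngp (-0.19 to 0.13), Chil3 (-0.22 to 0.13) and Olfm4 (-0.61 to 0.0082) also held 0, and that of Mmp25 (0.04 to 0.59) did not, with an adjusted p of 0.265.

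The third question was how the genotypes differed at a given treatment. In unstimulated cells all 10 genes were called lower in Padi4 KO than in WT, where 14.4% of all tested genes were lower and 9.55% higher. The count was 9 with DESeq2 and when any 1 of 6 libraries was left out, each time without Mmp25. With library size alone, 7 were called lower at each treatment. Cd177, Olfm4 and Mmp25 were not called without stimulation, and Cd177 and Mmp9 were not after R848, when Mmp25 was called higher. Calls over all 12254 tested genes also changed with the setting. In either direction they numbered 2933 by the main fit, 1061 with DESeq2 and 2462 with library size alone without stimulation. With R848 they numbered 2116, 1008 and 2287. After R848, 9 of the 10 were called lower, where 7.81% of all genes were lower and 9.46% higher. The contrasts share their libraries with the responses above. The members had a median log2 fold change of -0.57 without and -0.64 with R848, beside -0.16 and -0.0019 for the genes with at least 10 counts on average.

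Most abundant genes were lower in Padi4 KO as well. Of the 68 abundant genes, 88.2% were called lower and 4.41% higher without stimulation, and 75.0% lower and 2.94% higher after R848. Leaving out the members, 60 such genes remained, with a median log2 fold change of -0.44 (quartiles -0.53 and -0.27) without and -0.26 (-0.41 and -0.15) with R848. A call in the lower direction was thus common among genes of this abundance, and the size of the difference is what set some members apart from it.

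Chil3 differed most. It was 2.13-fold lower in unstimulated Padi4 KO cells (log2 fold change -1.09, SE 0.06, adjusted p = 6.5e-63) and 2.2-fold lower after R848 (-1.14, SE 0.06, adjusted p = 5.13e-68). Of the 60 other abundant genes, 0 had a lower value than Chil3 without stimulation and 1 had with R848. Mmp8 had -0.91 (SE 0.06, adjusted p = 8.7e-42), the next lowest of the 10 without stimulation, and -0.80 (SE 0.07, adjusted p = 4.42e-27) after R848, where Olfm4 was also at -0.81.

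The antimicrobial genes were in the middle of the range. Camp was lower by log2 fold changes of -0.75 without and -0.62 with R848, Ngp by -0.64 and -0.67, and Ltf by -0.56 and -0.76, each with SE 0.06. Lcn2 was lower by -0.57 and -0.41, so that unstimulated Padi4 KO cells had 7580 CPM on average against 11236 CPM in WT. Olfm4 was lower by -0.51 (SE 0.12, adjusted p = 0.000334) and -0.81 (SE 0.10, adjusted p = 4.13e-13).

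Smaller differences were found for Cd177 and the gelatinase granule genes. Cd177 had log2 fold changes of -0.41 (adjusted p = 2.93e-08) and -0.29 (adjusted p = 0.00344), close to the medians of the other abundant genes, and with library size alone both calls were lost (-0.13, adjusted p = 0.218, and -0.07, adjusted p = 0.622). Mmp9 had -0.52 (adjusted p = 1.5e-14) and -0.24 (adjusted p = 0.00189), of which the second was lost with library size alone (-0.03, adjusted p = 0.838). Mmp25 was called lower without stimulation (-0.28, SE 0.10, adjusted p = 0.0265), a call that was lost with DESeq2 (-0.23, adjusted p = 0.400), with library size alone (0.0063, adjusted p = 0.992) and when WT Nostim library 2, Padi4 KO Nostim library 1 or any of the 4 R848 libraries was left out (-0.25 to -0.13, adjusted p from 0.180 to 0.366). Its value was 0.03 (95% interval -0.17 to 0.23) after R848, where its libraries overlapped.

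With library size alone, the median over genes with at least 10 counts moved from -0.16 to 0.12 without stimulation and from -0.0019 to 0.21 after R848. Even so, the members' medians stayed below 0, at -0.28 and -0.43, and 9 of 10 values were below 0 in each contrast, Mmp25 being the other. Relative to the median of genes with at least 10 counts under TMM scaling, the 10 genes lay between -0.93 (Chil3) and -0.12 (Mmp25) without stimulation and between -1.13 (Chil3) and 0.03 (Mmp25) after R848.

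**Figure D4:**
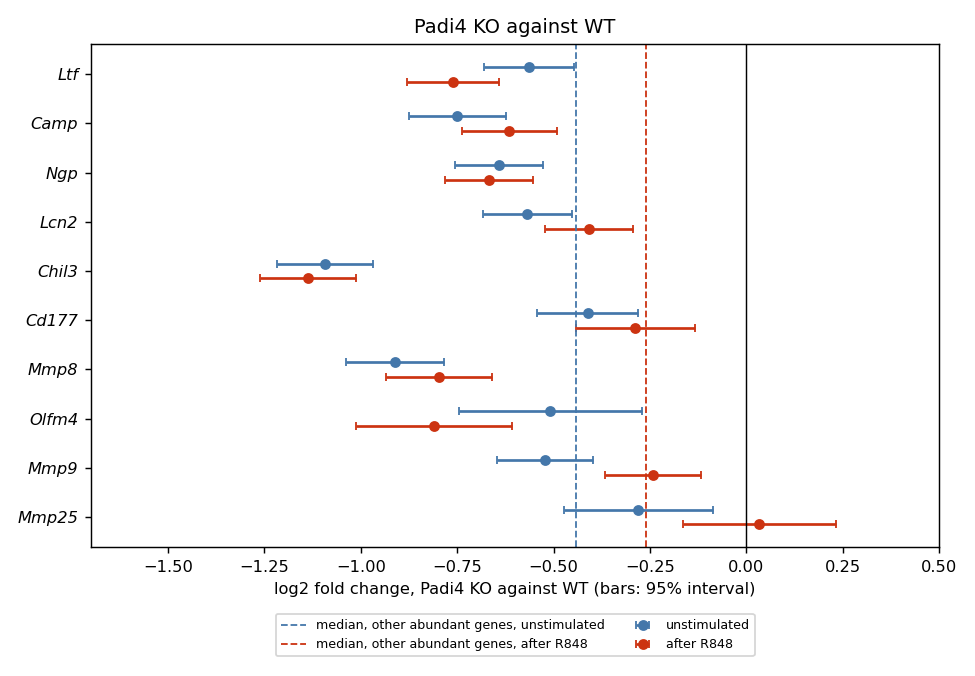
Log2 fold change of Padi4 KO against WT (x axis) for each granule gene, unstimulated and after R848; points are estimates of the edgeR model from 2 libraries a group, bars the 95% interval, dashed lines the medians of 60 other genes with at least 1000 counts on average (-0.44 and -0.26). Chil3 lies farthest to the left (-1.09 and -1.14), and the Mmp25 interval after R848 spans 0.

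Markers of other cells moved with the genotype. The 6 erythroid markers found of 8 listed summed to 9.0 to 53.0 CPM of the library total in the WT libraries and to 492 to 799.7 CPM in the Padi4 KO libraries, and none was at 0. The 8 monocyte markers summed to 449 to 1009 CPM in WT and 1136 to 1393 CPM in Padi4 KO, and the 6 markers of dividing precursors to 418 to 773 CPM and 819 to 1069 CPM, with none at 0 in either list. The 8 stromal and endothelial markers summed to 229 to 289 CPM in WT and 537 to 681 CPM in Padi4 KO without stimulation, and to 133 to 138 CPM and 89.9 to 90.8 CPM with R848, with none at 0 in all libraries. Of the 6 of them that were tested, the collagen genes Col1a1 and Col1a2 were called higher in unstimulated Padi4 KO cells (1.05 and 1.47) and lower after R848 in WT (-3.43 and -2.68) and Padi4 KO (-3.88 and -4.04). Vcam1, an adhesion molecule of endothelium, was called lower in Padi4 KO at each treatment (-1.63 and -1.31). The neutrophil markers, 5 of 7 of which were called lower in Padi4 KO at each treatment, had median log2 fold changes of -0.33 without and -0.52 with R848, beside lower calls for 14.4% and 7.81% of all tested genes and for 88.2% and 75.0% of the abundant ones, which include the markers S100a8, S100a9 and Csf3r. The part of these differences in the granule gene values was not tested. In bulk RNA, fewer cells that express a gene and less RNA of it per cell cannot be told apart.

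Of the remaining lists, the 8 lymphocyte markers summed to 11.04 to 31.2 CPM, with Cd3e and Cd8a at 0 in all libraries, and the 8 eosinophil and basophil markers to 19.4 to 74.9 CPM.

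Other granule genes were set beside the 10. Of 20 further cargo and membrane genes of secretory, specific and gelatinase granules, 18 were tested, and 8 were called higher after R848 in WT and 9 in Padi4 KO, with no other calls by edgeR in either. Of all tested genes 7.17% and 8.07% were called higher, and of the 68 abundant ones 26.5% and 27.9%. Their log2 fold changes had a median of 0.59 in WT and 1.02 in Padi4 KO. Fpr1, the formyl peptide receptor, rose by 3.46 and 3.50 on the log2 scale, and Slc11a1, a metal transporter of phagosome and granule membranes, by 2.66 and 2.76. Qsox1, a sulfhydryl oxidase, rose by 2.30 and 2.27, and Chil1, a chitinase-like protein of specific granules, by 1.53 and 2.14. The difference of response was called higher for 5 of the 18, among them Chil1 (0.62) and the haptoglobin gene Hp (0.59). It was called lower for 2, among them the urokinase receptor Plaur (-0.82). Of all tested genes 3.45% were called higher and 1.26% lower, and of the 68 abundant ones 29.4% and 8.82%. In Padi4 KO against WT, 14 were lower and 1 higher without stimulation, and 10 were lower and 2 higher after R848, where 14.4% and 7.81% of all tested genes and 88.2% and 75.0% of the abundant ones were lower.

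Of 7 azurophil granule genes tested, 4 were called lower after R848 in WT and 5 in Padi4 KO, where 10.8% and 8.84% of all tested genes were, and Ctsc, which activates granule serine proteases, was called higher in WT (1.07). Myeloperoxidase (Mpo) had log2 fold changes of -2.11 in WT and -2.71 in Padi4 KO, neutrophil elastase (Elane) of -1.42 and -1.76, and the protease gene Prtn3 of -1.27 and -1.95. The difference of response was called lower for Ctsc (-0.90), Prtn3 (-0.68) and Mpo (-0.60), where 1.26% of all tested genes were, and their counts were low, 83.5 to 209 on average per library. In Padi4 KO against WT, 4 of the 7 were lower without and 5 with R848, where 14.4% and 7.81% of all tested genes were, with medians of -0.50 and -1.13 beside -0.57 and -0.64 for the 10 specific and gelatinase granule genes. Mpo had -0.85 and -1.45, and Ctsc was higher at each treatment (1.59 and 0.70).

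**Figure D5:**
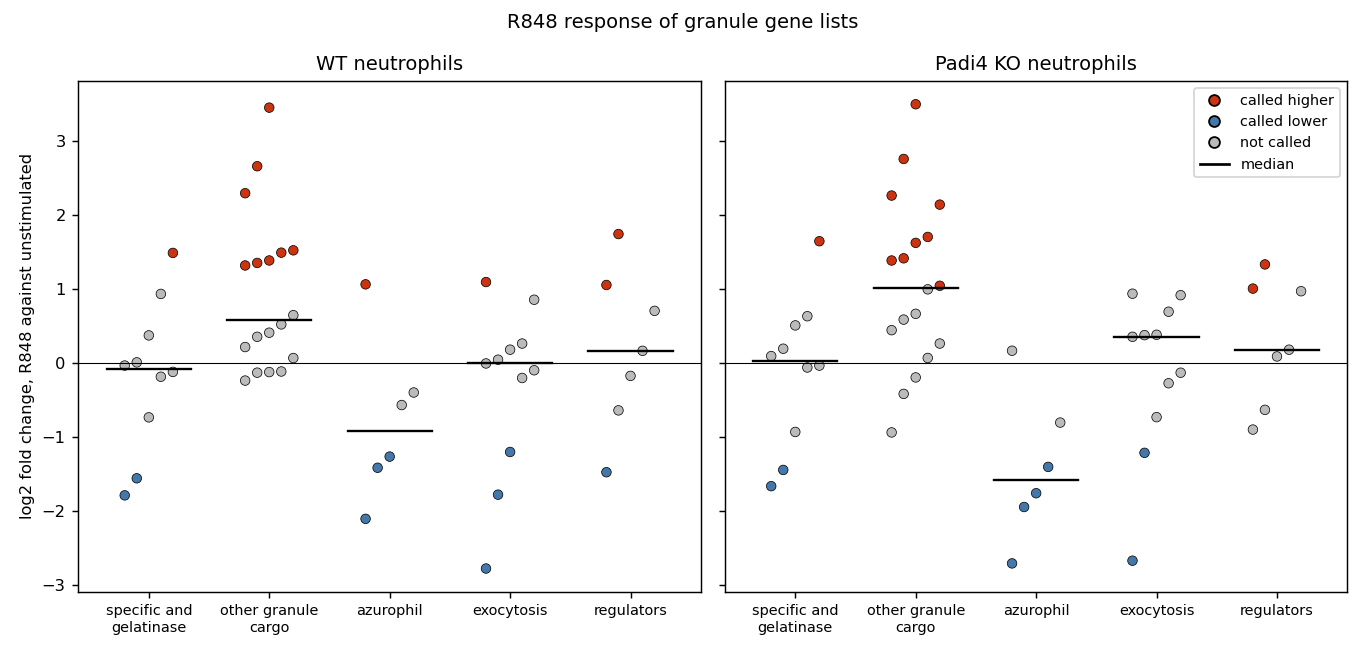
Log2 fold change after R848 (y axis) of the genes of 5 lists with at least 10 counts on average, in WT (left) and Padi4 KO (right); each point is 1 gene, coloured by its call, and the line is the list's median. The 10 specific and gelatinase granule genes centre near 0 (-0.08 and 0.03), the other cargo genes above it (0.59 and 1.02) and the azurophil genes below it (-0.92 and -1.59).

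Of 14 genes of the exocytosis machinery tested, 1 was called higher and 3 lower after R848 in WT, and 3 were called lower in Padi4 KO, beside all-gene shares of 7.17% higher and 10.8% lower in WT and 8.84% lower in Padi4 KO. Snap23, a SNARE of the plasma membrane, rose in WT (1.10) and had 0.94 in Padi4 KO (adjusted p = 4.49e-13), just under the 2-fold limit. Rab3d, a vesicle GTPase, fell in both genotypes (-1.78 and -1.22), with a difference of 0.57 (adjusted p = 0.0395). Unc13d, which primes granules for fusion, fell in WT (-1.20). In Padi4 KO against WT, 5 were lower without and 3 with R848, where 14.4% and 7.81% of all tested genes were. Rab27a, the GTPase that docks granules, was lower in both (-0.49 and -0.42).

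Of the 6 partners and inhibitors tested of 10 listed, 2 were called lower after R848 in WT and 3 in Padi4 KO, where 10.8% and 8.84% of all tested genes were. Reck, a membrane inhibitor of metalloproteinases, fell by 1.10 and 1.21 on the log2 scale, and Lrp1, an endocytic receptor for metalloproteinases and lactoferrin, by 1.03 and 1.39. In Padi4 KO against WT, 3 were higher and 1 lower without stimulation and 2 higher and 1 lower with R848, beside all-gene shares of 9.55% and 9.46% higher and 14.4% and 7.81% lower. The metalloproteinase inhibitor Timp2 was lower (-0.57 and -0.76), and the transferrin receptor Tfrc, abundant in erythroid precursors, was higher (2.88 and 3.15) beside the erythroid markers given above.

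Transcription factors known to control granule genes were tested for 7 of 8 listed. Cebpe, the factor tied to specific granules, had 243 and 294 CPM in unstimulated WT libraries and 99.9 and 92.1 CPM after R848, a fall of 1.48 on the log2 scale (SE 0.16, adjusted p = 5.1e-18). In Padi4 KO it had 153 and 140.1 CPM without and 77.3 and 78.1 CPM with R848 (-0.90, SE 0.15, adjusted p = 6.49e-09), and the difference between the genotypes was 0.58 (adjusted p = 0.167). Unstimulated Padi4 KO cells had less Cebpe than WT (-0.88, SE 0.13, adjusted p = 4.38e-10), and after R848 the value was -0.30 (SE 0.19, adjusted p = 0.359), which was not called.

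Cebpb, a factor of emergency granulopoiesis, rose by 1.75 on the log2 scale in WT and had 0.97 in Padi4 KO, under the 2-fold limit. Its difference of response was -0.77 (SE 0.13, adjusted p = 3.57e-07). Cebpa rose by 1.06 and 1.33, and Spi1, which encodes PU.1, had 0.71 and 1.01, of which the second passed the 2-fold limit. Cebpd (-0.17 and 0.18), Stat3 (0.16 and 0.09) and Gfi1 (-0.64 and -0.63) gave no call in the responses. Gfi1, a repressor needed for neutrophil maturation, was lower in Padi4 KO without (-1.31, SE 0.30, adjusted p = 0.00017) and with R848 (-1.30, SE 0.39, adjusted p = 0.00825), at 20.0 counts on average. Cebpb was higher in unstimulated Padi4 KO cells (0.30, SE 0.10, adjusted p = 0.017) and lower after R848 (-0.48, SE 0.08, adjusted p = 9.73e-08). Of the 7 regulators, 4 were lower and 1 higher in Padi4 KO without stimulation, where 14.4% and 9.55% of all tested genes were, and 2 were lower after R848, where 7.81% were.

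The genes whose levels followed the members most closely over the 8 libraries were ranked by Pearson's r of log2 CPM among 2909 other genes with at least 50 counts on average. The 8 points form 4 groups, so r reflects group levels. Closest to the mean of the 10 genes were Padi4 itself (r = 0.99), which is lower in Padi4 KO by design, Gbe1 (0.99), Rab27a (0.98), Neu1 (0.98) and Itm2b (0.98). Rab27a had 326 CPM on average in unstimulated WT, 284 in WT with R848, and 232 and 212 in Padi4 KO.

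The patterns of single members had different neighbours. Ltf was closest to Atp8b4, Lta4h and Fcnb (r = 0.99 each), and Camp to the lysozyme gene Lyz2 (0.98), Gnai3 (0.98) and Eif5 (0.98). Mmp8 was closest to Ipcef1 (1.00), Anxa1 (1.00) and Sun2 (0.99), Cd177 to Atp2a3 (1.00), Pi16 (1.00) and Lbp (0.99), and Mmp9 to Ogt (0.98), Hdac4 (0.97) and Ckap4 (0.97). Fcnb had 354 ± 26.6 CPM (SD, n = 2) in unstimulated WT cells, 200.2 ± 5.1 CPM with R848, 207 ± 12.1 CPM in unstimulated Padi4 KO and 109 ± 10.3 CPM in Padi4 KO with R848, and was highest and lowest in the same groups as Ltf.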

How the data were processed

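The authors trimmed reads with cutadapt 1.16, mapped them to mm10 with STAR 2.5.3a and counted them on genes with HTSeq 0.6.1p1, per the labels and the methods; libraries were made with an Illumina TruSeq kit and paired-end sequenced. The deposited values are raw counts per gene symbol, without normalization. The annotation and strand setting of the counting are not given in the sources used here. HTSeq summary lines were left out, and 87.0% to 89.5% of the reads of a library were on genes. The floor of 3 counts was 2.55 to 5.33 CPM, and floors and intervals cover counting error only. Duplicates differed beyond counting noise in each group (chi-square over its degrees of freedom 1.05 to 1.67).

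Genes with at least 1 count in at least 2 of 8 libraries (12254) were fitted with edgeR 4.0.16 (limma 3.58.1, R 4.3.3): TMM factors, 1 mean per group over all 8 libraries, and the robust quasi-likelihood test. The biological coefficient of variation was 4.68%. SEs were obtained from the log2 fold change and the F statistic (its size over the root of F). Responses were called as in the methods, which name DESeq2; here DESeq2 1.42.0 was an alternative. Other alternatives were filters, scaling, thresholds, the replicate number as a block, separate models and leaving out each library.

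The members and lists were chosen with earlier results of these data known. All 10 members are reported; of each other list, counts and up to 4 genes with at least 10 counts on average and the smallest p, plus all such regulators; Rab27a and Fcnb were given CPM values after their values were seen. On simulated data with 200 of 11884 genes changed 4-fold in the WT response, the fit recovered 186 and made 9 false calls. No genotype difference and no shift in composition were simulated, so this does not bear on the genotype calls, which have no fold limit. Promoters are from RefSeq and positions from GENCODE on GRCm38, the build of mm10. Protein sequences were not used here.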

Additional observations from a re-analysis of the deposited data

Results flagged for a closer look

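The R848 response of Mmp9 differed between the genotypes in the direct test: subtracting the WT log2 fold change from the one in Padi4 KO gave 0.28 (adjusted p = 0.0523 in the edgeR quasi-likelihood test). Both WT libraries were lower and both Padi4 KO libraries higher after R848 than their unstimulated counterparts. The call was lost with DESeq2 (0.12), with relative log expression factors (0.12) and with library size alone (0.21), and when any library except WT Nostim library 2 was left out. Leaving out WT R848 library 1 turned the difference to -0.09. With 2 libraries per group, it cannot be told which of them is the outlying one.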

How the results depend on the processing

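The calls of Lcn2, Cd177 and Mmp8 in both responses held under all 18 alternatives, with log2 fold changes of 1.18 to 1.63, -2.10 to -1.55 and -1.87 to -1.36 in WT and 1.27 to 1.65, -2.04 to -1.66 and -1.82 to -1.41 in Padi4 KO. In WT, 2 genes were higher with DESeq2, relative log expression (RLE) factors and a separate model, and 3 were higher and 4 lower without the fold limit, under which 4 were higher in Padi4 KO; leaving out 1 library gave 1 to 2 higher in WT. In Padi4 KO, 3 were lower (Ltf added) with DESeq2, RLE, library size alone, no fold limit and when any R848 library was left out. For the difference of response, 0 were higher and 1 lower with DESeq2, RLE and library size alone, 0 were higher with a false discovery rate below 0.05 or a 2-fold limit, and leaving out 1 library gave 0 to 1 higher and 0 to 4 lower. In Padi4 KO against WT, a 2-fold limit left 1 gene lower without and 1 with R848 (Chil3 in both). Library size alone gave 1 gene higher with R848. The 2-fold limit left 1036 and 1011 of all 12254 tested genes called in either direction. With the main fit, DESeq2, RLE and library size alone, such calls in the difference of response numbered 577, 125, 393 and 425. In the WT response they numbered 2207, 1530, 2162 and 2736, and in Padi4 KO 2072, 1289, 2123 and 2696. Over all reads of the table, the members' share was 7.85% (WT) and 6.16% (Padi4 KO) without and 6.98% and 5.43% with R848; no gene symbol began with mt-, so leaving out mitochondrial genes changed nothing. The WT response turned sign for Ngp (0.037 with DESeq2 and RLE, 0.087 separately), Chil3 (-0.045 with filterByExpr, -0.30 with library size) and Mmp25 (0.00058 separately), and the Padi4 KO response with library size for Mmp9 (-0.28) and Mmp25 (-0.18). With DESeq2 and RLE the difference turned for Camp (-0.021 and -0.020), Cd177 (-0.031 and -0.032) and Mmp8 (-0.041 for both), and Mmp25 in Padi4 KO against WT turned with library size without R848 (0.0063) and with DESeq2 (-0.064) and RLE (-0.067) after it. Leaving out 1 library turned the WT response of Chil3 (-0.058 to 0.22), Ngp (-0.041 to 0.086), Mmp9 (-0.20 to 0.043) and Mmp25 (-0.18 to 0.15), the Padi4 KO response of Mmp9 (-0.059 to 0.11) and Mmp25 (-0.023 to 0.31), the difference for Camp (-0.13 to 0.26), Chil3 (-0.38 to 0.023), Lcn2 (-0.12 to 0.18), Cd177 (-0.25 to 0.15), Mmp8 (-0.22 to 0.15), Mmp9 (-0.086 to 0.30) and Mmp25 (-0.10 to 0.42), and Mmp25 in Padi4 KO against WT after R848 (-0.24 to 0.11). The cause of these turns was not tested; leaving out a library leaves 1 in its group, assumed to vary like the others. Same-numbered libraries did not deviate together (r from -0.0057 to 0.04 across 2919 genes). This cannot exclude pairing, because most duplicates differed little beyond counting noise. With the replicate block the Mmp9 difference was 0.28 (adjusted p = 0.0287 in the edgeR quasi-likelihood test), and the count of members called in each contrast was as without it. Counts were lowest for Olfm4 and Mmp25 among the 10 genes, which limits their precision.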
